A study of Danio rerio with 5 samples.

Results

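The solute carrier genes described here belong to 10 families whose members carry ions, sugars, phosphate, amino acids and organic compounds across the membranes of kidney tubules: slc4, slc5, slc6, slc9, slc12, slc13, slc20, slc22, slc26 and slc34. They were chosen by symbol, in any letter case, with at least 10 read counts in total over the 5 libraries. Of the 32520 Ensembl gene IDs counted, 123 carried such a symbol and 120 were kept as members. The 3 IDs left out had 6 (slc5a3a), 8 (slc12a10.2) and 8 (slc12a5b) counts in total, and the member slc12a2l, close to this limit, had 13. One member, slc4a1ap, encodes a protein that binds the anion exchanger SLC4A1 and is not itself a carrier.

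Whole kidneys of zebrafish (Danio rerio), strain EK, were sequenced as bulk RNA. The mutant kidneys gave 2 libraries, runx1 null 5 and 6, of fish homozygous for the runx1 allele hg96 (del8), and their wild-type (WT) siblings gave 3 libraries, WT 1, 2 and 3. All fish were about 2.5 months old, and each library pooled 3 kidneys. runx1 encodes a transcription factor needed for the formation of blood stem cells, the mutation is present in every tissue, and the comparison asks what differs in the kidneys of fish that reach adulthood without it.

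In a tubule cell the sodium pump keeps internal sodium low. Carriers of the slc5, slc13, slc20 and slc34 families, and many of slc6, use that gradient to take glucose, carboxylates, sulfate, phosphate and amino acids back from the filtrate. The slc22 carriers move organic anions and cations, the slc12 carriers couple chloride to sodium or potassium, the slc9 carriers exchange sodium for protons, and slc4 and slc26 carriers exchange bicarbonate, chloride, sulfate and other anions. The kidney of the adult zebrafish is also its blood-forming marrow. Some members of these families serve red blood cells, SLC4A1 (band 3) above all, so that a library of whole kidney holds the carriers of tubule, blood and any attached tissue together.

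Counts in genes were between 27631376 and 33752278 per library, and 3 counts, taken as the smallest level that the depth can show, came to between 0.0876 and 0.113 counts per 1000000 counts of the effective library size (CPM). RUNX1 itself had 184 and 56 counts in runx1 null 5 and 6, against 139, 90 and 87 counts in WT 1, 2 and 3, so its level did not check the genotype labels, and counts over a gene do not show a small deletion. The libraries differed in the tissues they held, within each genotype and, for some blood-cell markers, also between the genotypes. The summed level of 15 nephron markers that are not members (of 22 names listed) was 3562 and 445 CPM in runx1 null 5 and 6, against 646, 701 and 65.0 CPM in WT 1, 2 and 3. For 13 of 14 ovary markers it was 7.84 and 10040 CPM in the null libraries, against 14.1, 1665 and 8.08 CPM in WT. For 8 of 11 red-cell markers it was 43330 and 5832 CPM in the null libraries, against 39210, 36830 and 65570 CPM in WT. For all 10 liver markers it was 45820 and 38580 CPM in the null libraries, against 28410, 93440 and 1585 CPM in WT, most of it from the yolk protein genes vtg1 and vtg2. By these sums runx1 null 5 had the highest nephron level and WT 3 the lowest, and runx1 null 6 had the lowest red-cell level. The ovary transcripts were in runx1 null 6 and WT 2, and WT 3 had the lowest liver level as well. Most of the nephron sum in runx1 null 5 came from CDH17, atp1a1a.4, CUBN and cltrn. Not all nephron markers had this order: wt1b was highest in WT 3, lhx1a and umod were highest in runx1 null 6, and podxl and GATA3 were lowest there. The other nephron markers were each highest in runx1 null 5 and lowest in WT 3. Most of the red-cell sum came from hbaa1, at 29490 and 3960 CPM in the null libraries, against 22760, 21690 and 40070 CPM in WT. Each of the other red-cell markers was lower in both null libraries than in any WT library. Summed over 4 of 5 thrombocyte markers, the level was 256 and 87.9 CPM in the null libraries, against 697, 553 and 842 CPM in WT 1, 2 and 3. For all 4 B-cell markers it was 6.11 and 1.93 CPM in the null libraries, against 46.0, 24.5 and 28.1 CPM in WT. Neutrophil and macrophage sums overlapped between the genotypes. In bulk tissue, fewer cells of a type and less RNA per cell cannot be told apart.

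Of the 120 members, 105 had enough counts to enter the test, and the other 15 had at most 40 counts in any library. With edgeR's quasi-likelihood test no member reached the 0.05 threshold after adjustment, nor did any of the 20386 genes tested (0%), and the smallest adjusted p-value of a member was 0.612. Without adjustment, 14 members were higher in the null libraries at p under 0.05, beside 3.16% of all genes tested, and 2 were lower, beside 1.21%. Together these were 16 of 105 members, 15.2%, beside 4.37% of all genes tested. DESeq2's Wald test called 3 members, against 0.397% of all genes tested: SLC5A1 and one SLC34A1 ID higher and slc4a3 lower. CPM of both null libraries lay above all WT libraries for 20 tested members, 19.0%, beside 11.1% of all genes tested, and below them for 16, 15.2%, beside 14.8%. The members' share was above that of all genes in the first case and close to it in the second. The labels do not say whether the pools came from separate clutches, so all p-values measure the spread between these pools.

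Families differed in where their members were highest. Over all families the median log2 fold change, null over WT, of the tested members was 0.95, and that of all genes tested was 0.24. It was above 0 for 72 of the 105 members, 68.6%, beside 58.2% of all genes tested. The members' median rested largely on runx1 null 5: without that library it was 0.24, with 62 of 113 members tested above 0, and the median of all genes tested was then -0.09. The family medians were 2.304 for slc22 (14 members tested), 2.47 for slc34 (4), 2.14 for slc13 (5) and 2.13 for slc5 (13), carriers of organic ions, phosphate, carboxylates and sulfate, and sugars. They lay between 0.53 and 0.65 for slc4 (13), slc9 (10), slc12 (11) and slc26 (10), at 0.19 for slc20 (3) and at -0.10 for slc6 (22). The library with the highest summed nephron level, runx1 null 5, was the highest for 46 tested members (43.8%, beside 22.8% of all genes tested). The library with the lowest, WT 3, was the lowest for 55 (52.4%, beside 28.6%). Both held for 37 members, 35.2%, beside 8.61% of all genes tested, and the part of nephron or liver content in the differences between genotypes was not tested.

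**Figure D1:**
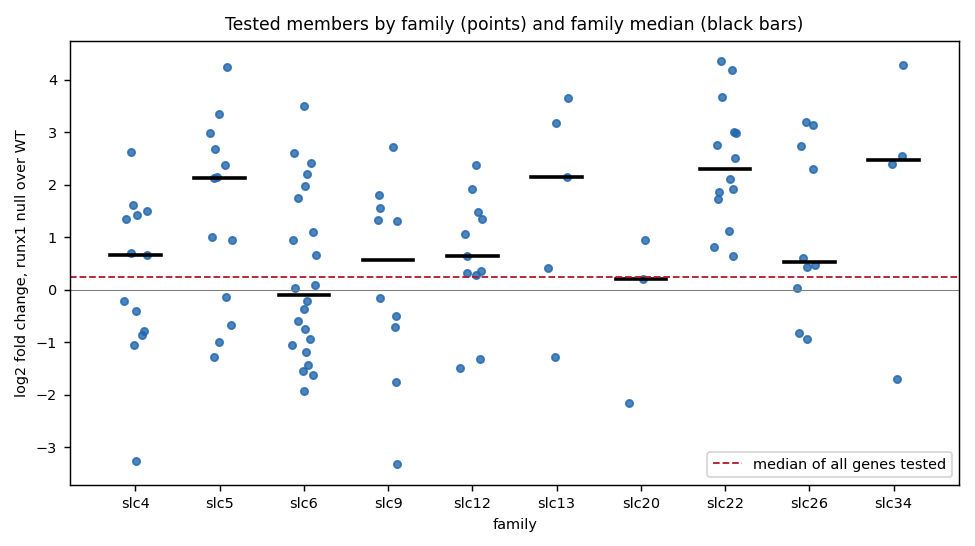
The log2 fold change (runx1 null over WT) of each tested member is plotted by family, with the family median as a black bar and the median of all genes tested (0.24) as a dashed line. All 14 slc22 points lie above 0, while those of slc6 lie on both sides of it.

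The libraries can also be split by their ovary transcripts. Between runx1 null 6 and WT 2, which both had them, the median log2 CPM difference of the tested members was 0.01, with 53 of 105 members (50.5%, beside 51.1% of all genes tested) higher in runx1 null 6. Between runx1 null 5 and the mean of WT 1 and WT 3 it was 1.34, with 63 of 105 members (60%, beside 40.95% of all genes tested) higher in runx1 null 5 than in either of those WT libraries. The same medians over all genes tested were 0.04 and 0.06. By family, the median difference on the ovary-bearing side and on the other side was 0.75 and 3.92 for slc22, 1.21 and 3.53 for slc34, 0.61 and 1.64 for slc5, and 0.13 and 3.71 for slc13. It was -0.46 and 1.12 for slc12, -0.81 and 0.38 for slc6, -0.07 and 1.02 for slc26, 0.37 and 0.26 for slc9, 0.05 and 0.22 for slc20 and 0.28 and -0.08 for slc4. In slc22, slc34, slc5, slc13 and slc20 both medians were positive. The larger one of each family came from the comparison that holds runx1 null 5 and WT 3. Both were also positive in slc9, where the ovary-bearing side had the larger one.

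**Figure D2:**
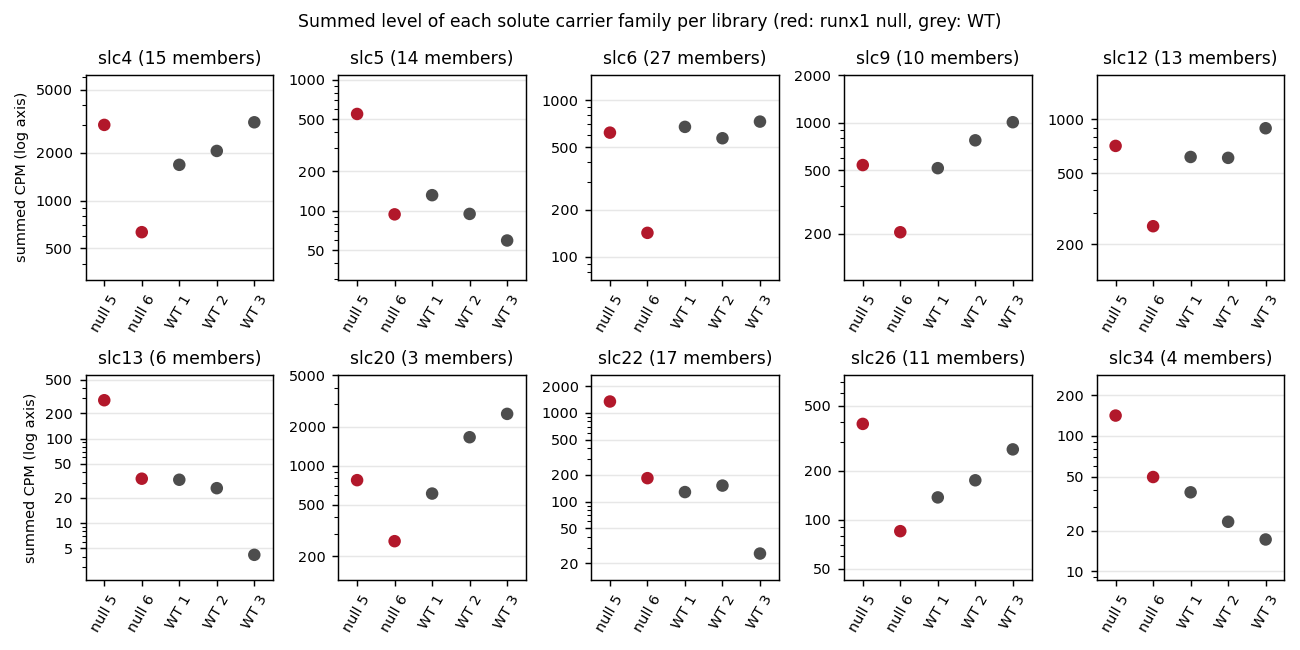
Each panel gives the summed CPM (log axis) of all members of a family in the 5 libraries, runx1 null in red and WT in grey. In slc22 the null libraries reached 1345 and 184 CPM, against 128, 151 and 25.9 CPM in WT 1, 2 and 3, while in slc20 the highest values were those of WT 2 and WT 3.

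In the full comparison the organic ion carriers of slc22 had the most uniform direction. All 14 tested members had a positive log2 fold change, beside 58.2% of all genes tested. Without runx1 null 5, 12 of 15 tested members were above 0 and 3 below, beside 10375 of 21515 genes above 0. Level in runx1 null 6 exceeded that in WT 2 for 10 of the 14 (71.4%, beside 51.1% of all genes tested). CPM of 7 of the 14 lay above all WT libraries in both null libraries (50%, beside 11.1% of all genes tested), and 13 of the 14 were lowest in WT 3 (92.9%, beside 28.6%). The family summed to 1345 and 184 CPM in runx1 null 5 and 6, against 128, 151 and 25.9 CPM in WT 1, 2 and 3. It took 16.1% and 9.46% of the reads of all members in the null libraries, against 2.80%, 2.46% and 0.299% in WT. Its share was higher in both null libraries than in any WT library, as were the shares of slc5, slc13, slc26 and slc34. The shares of slc6 and slc9 were lower in both null libraries than in any WT library. For slc6 they were 7.42% and 7.32% in the null libraries, against 14.8%, 9.30% and 8.44% in WT. For slc9 they were 6.47% and 10.5%, against 11.3%, 12.6% and 11.7%. Those of slc4, slc12 and slc20 overlapped. A family's share also depends on the 8 members with the most counts, among them SLC4A1 and SLC20A1. Together these took 53.7% and 45.7% in the null libraries, against 77.3%, 78.85% and 90.7% in WT. These shares are of reads and are not corrected for gene length.

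SLC22A2 (ENSDARG00000030530), in mammals the organic cation carrier OCT2 of the proximal tubule, stood at 388 and 45.8 CPM in runx1 null 5 and 6, against 41.2, 66.05 and 7.25 CPM in WT 1, 2 and 3. Like the summed nephron markers it was highest in runx1 null 5 and lowest in WT 3, and runx1 null 6 lay within the WT values. Its log2 fold change was 2.51 with a standard error of 1.15 (adjusted p = 0.612 in edgeR), and 0.24 without runx1 null 5. SLC22A8 (ENSDARG00000055523), the organic anion carrier OAT3 of mammals, had 348 and 23.8 CPM in the null libraries, against 18.1, 12.4 and 0.302 CPM in WT. The groups of SLC22A8 did not overlap, although runx1 null 6 was close to WT 1, and the log2 fold change was 4.18 with a standard error of 1.69 (adjusted p = 0.612 in edgeR), and 1.19 without runx1 null 5.

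The related anion carriers slc22a7b.1 (ENSDARG00000056643) and slc22a7b.2 (ENSDARG00000091252) followed SLC22A8. For slc22a7b.1 the values were 181 and 15.1 CPM in runx1 null 5 and 6, against 13.7, 6.13 and 3.25 CPM in WT 1, 2 and 3. For slc22a7b.2 they were 286 and 19.2 CPM in the null libraries, against 14.0, 7.25 and 1.02 CPM in WT. Neither gene overlapped between the groups, and the log2 fold changes were 3.67 ± 1.13 and 4.36 ± 1.42 (standard errors, adjusted p = 0.612 for both in edgeR), of which 0.95 and 1.34 were left without runx1 null 5. The neighboring name slc22a7b.3 stayed between 0.216 and 4.34 CPM, and as near copies can share reads, the split of counts among the 3 is uncertain. Also separate between the groups was slc22a16 (ENSDARG00000015869), a carnitine carrier in mammals, with 9.61 and 2.80 CPM in the null libraries, against 0.909, 0.973 and 0.415 CPM in WT, and a log2 fold change of 3.01 ± 0.84 (standard error, adjusted p = 0.612 in edgeR).

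**Figure D3:**
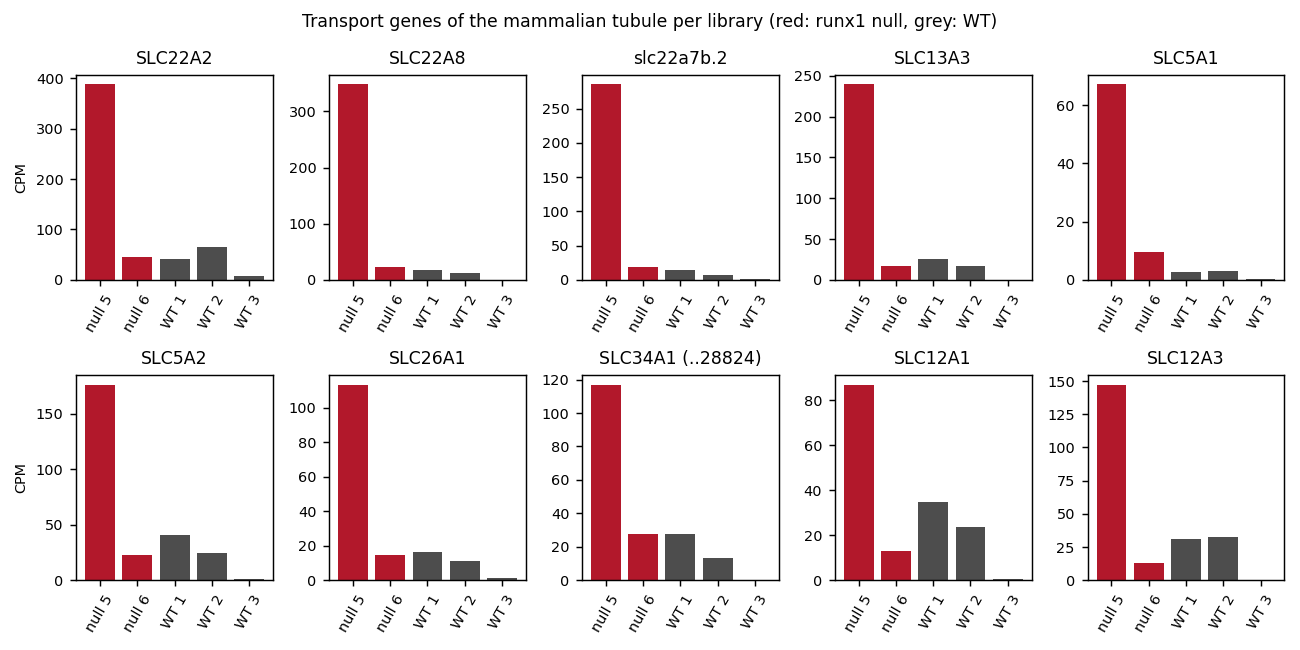
CPM (linear axis) of 10 members that are carriers of the kidney tubule in mammals, with runx1 null libraries in red and WT libraries in grey. Every panel has its highest bar in runx1 null 5 and its lowest in WT 3, but the 10 are a selection. Among tubule carriers not drawn, SLC13A1 was lowest in WT 1. One SLC4A4 ID (ENSDARG00000044808) was highest in WT 1 and lowest in runx1 null 6. The runx1 null 6 bar lies below WT 1 and WT 2 for SLC5A2, SLC12A1 and SLC12A3. It lies between them for SLC22A2, SLC13A3, SLC26A1 and SLC34A1, and above both for SLC22A8, slc22a7b.2 and SLC5A1.

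The sodium-coupled sugar carriers of slc5 split into tubule genes and others. SLC5A2 (ENSDARG00000100919), the SGLT2 glucose carrier of mammals, stood at 176 and 22.7 CPM in runx1 null 5 and 6, against 41.1, 24.6 and 1.47 CPM in WT 1, 2 and 3, and the groups overlapped. SLC5A1 (ENSDARG00000013871), the SGLT1 glucose carrier, had 67.2 and 9.43 CPM in the null libraries, against 2.67, 2.96 and 0.415 CPM in WT. Here both null libraries lay above every WT library, with a log2 fold change of 4.245 ± 1.17 (standard error), an adjusted p of 0.612 in edgeR and of 0.0461 in DESeq2's Wald test. Without runx1 null 5 the log2 fold change of SLC5A1 was 2.196.

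The monocarboxylate carrier SLC5A12 (ENSDARG00000005004) had 172 and 18.8 CPM in runx1 null 5 and 6, against 23.9, 11.9 and 0.189 CPM in WT 1, 2 and 3. The inositol carrier slc5a3b (ENSDARG00000077812) showed another order, with 39.8 and 7.76 CPM in the null libraries, against 40.4, 33.4 and 39.9 CPM in WT. It was near one level in every library except runx1 null 6. One of 2 IDs of the vitamin carrier SLC5A6 (ENSDARG00000042859) had more in each null library, 3.02 and 8.17 CPM, against 1.53, 1.51 and 0.793 CPM in WT, with its highest value in the ovary-bearing runx1 null 6.

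In slc13, SLC13A3 (ENSDARG00000069478), a dicarboxylate carrier of the basal membrane in mammals, stood at 239 and 17.2 CPM in runx1 null 5 and 6, against 25.5, 17.0 and 0.264 CPM in WT 1, 2 and 3. The groups of SLC13A3 overlapped. The sulfate carrier SLC13A1 (ENSDARG00000045638) had 22.4 and 2.22 CPM in the null libraries, against 0.821, 0.865 and 1.25 CPM in WT, and the citrate carrier SLC13A5 (ENSDARG00000077691) had 21.4 and 12.1 CPM, against 4.75, 6.17 and 0.491 CPM. Both were higher in each null library than in any WT library, with log2 fold changes of 3.65 ± 1.04 for SLC13A1 and 2.14 ± 1.04 for SLC13A5 (standard errors, adjusted p = 0.612 for both in edgeR). Without runx1 null 5 these were 1.15 for SLC13A1 and 1.64 for SLC13A5. SLC13A1 was the one gene of the 3 that was not lowest in WT 3. SLC13A5, like the slc22a7 carriers, is also a liver gene in mammals, and the liver markers were likewise lowest in WT 3 but highest in WT 2; their part in these levels was not tested.

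Phosphate is reclaimed by the slc34 carriers, and the symbol SLC34A1, the NaPi-IIa carrier of the mammalian proximal tubule, was carried by 2 IDs. ENSDARG00000028824 had 117 and 27.8 CPM in runx1 null 5 and 6, against 27.9, 13.2 and 0.0755 CPM in WT 1, 2 and 3, and runx1 null 6 and WT 1 were level, with only 2 counts in WT 3. ENSDARG00000054658 had 15.4 and 2.101 CPM in the null libraries, against 0.352, 0.793 and 0.189 CPM in WT, or 478 and 72 counts against 12, 22 and 5. Its groups did not overlap, with a log2 fold change of 4.28 ± 1.13 (standard error), an adjusted p of 0.612 in edgeR and of 0.0299 in DESeq2's Wald test, and a log2 fold change of 2.204 without runx1 null 5.

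The other phosphate carriers of slc34 followed neither. SLC34A2 (ENSDARG00000012903), NaPi-IIb in mammals, stood at 5.59 and 0.613 CPM in runx1 null 5 and 6, against 8.98, 5.88 and 15.6 CPM in WT 1, 2 and 3, and was highest in the library with the least nephron signal. The gene slc34a2b (ENSDARG00000036864) had 3.57 and 19.2 CPM in the null libraries, against 1.12, 3.39 and 1.36 CPM in WT, highest in the ovary-bearing runx1 null 6. Both were separate between the groups, in opposite directions, with log2 fold changes of -1.71 ± 1.08 and 2.54 ± 0.95 (standard errors, adjusted p = 0.612 for both in edgeR).

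The anion exchangers of slc26 held both kinds of pattern. SLC26A1 (ENSDARG00000029832), a sulfate exchanger, had 113 and 14.6 CPM in runx1 null 5 and 6, against 16.5, 11.2 and 1.02 CPM in WT 1, 2 and 3. One of 2 IDs of SLC26A6 (ENSDARG00000054127), a chloride, oxalate and bicarbonate exchanger, had 69.7 and 4.67 CPM in the null libraries, against 6.10 and 6.56 CPM in WT 1 and 2 and no counts in WT 3, which allows up to 0.113 CPM. Both genes had overlapping groups and were highest in runx1 null 5. SLC26A5 (ENSDARG00000022424), named prestin for its role in mammalian hair cells, stood at 149 and 22.3 CPM in the null libraries, against 93.0, 114 and 252 CPM in WT. Its highest library was WT 3 and its lowest runx1 null 6, the order of the summed red-cell markers at both ends. SLC26A5 took 38.4% and 26.1% of the family's reads in runx1 null 5 and 6, against 67.7%, 65.2% and 92.9% in WT 1, 2 and 3.

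Among the bicarbonate carriers of slc4, a single ID of SLC4A1 (ENSDARG00000012881), the band 3 anion exchanger of red cells, took between 76.9% and 95.9% of the family's reads. It stood at 2710 and 487 CPM in runx1 null 5 and 6, against 1534, 1850 and 2993 CPM in WT 1, 2 and 3. Like the summed red-cell markers, SLC4A1 was highest in WT 3 and lowest in runx1 null 6. In runx1 null 5 it was above WT 1 and WT 2, as hbaa1 was. Every other red-cell marker of the list lay below all WT libraries there. The part of red-cell content in the level of SLC4A1 was not tested. Its log2 fold change was -0.41 ± 0.83 (standard error, adjusted p = 0.832 in edgeR), and it was 0.39 without runx1 null 6.

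The anion exchanger slc4a3 (ENSDARG00000104005) had 1.51 and 0.584 CPM in runx1 null 5 and 6, against 9.65, 5.88 and 14.7 CPM in WT 1, 2 and 3, or 47 and 20 counts against 329, 163 and 388. It was the lowest of the tested slc4 members by log2 fold change, -3.26 ± 0.85 (standard error), with an adjusted p of 0.612 in edgeR and of 0.0136 in DESeq2's Wald test. Leaving out either null library kept it low, at -4.13 without runx1 null 5 and -2.69 without runx1 null 6. The order of the libraries by slc4a3 level was that of the summed thrombocyte markers, and the part of blood-cell content in its level was not tested. The binding protein gene slc4a1ap (ENSDARG00000034160) was also lower in both null libraries, at 43.1 and 21.9 CPM, against 64.4, 46.2 and 67.9 CPM in WT.

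The chloride carriers of slc12 joined tubule genes of the distal nephron with carriers found in blood cells. SLC12A1 (ENSDARG00000098096), the target of loop diuretics in mammals, stood at 87.0 and 12.99 CPM in runx1 null 5 and 6, against 34.99, 23.6 and 0.680 CPM in WT 1, 2 and 3. SLC12A3 (ENSDARG00000013855), the target of thiazides, had 147 and 12.6 CPM in the null libraries, against 30.7, 32.6 and 0.415 CPM in WT. For both genes runx1 null 5 was above and runx1 null 6 below WT 1 and WT 2, and without runx1 null 5 the log2 fold changes of 1.34 and 1.91 became -0.63 and -0.78.

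The potassium and chloride carriers moved otherwise. SLC12A7 (ENSDARG00000062058) had 225 and 54.5 CPM in runx1 null 5 and 6, against 340, 261 and 578 CPM in WT 1, 2 and 3, and slc12a7a (ENSDARG00000073756) had 142 and 25.3 CPM, against 161, 183 and 283 CPM. Both were lower in each null library than in any WT library, by log2 fold changes of -1.49 ± 0.76 and -1.32 ± 0.80 (standard errors, adjusted p = 0.612 for both in edgeR). Like the summed red-cell markers, they were highest in WT 3 and lowest in runx1 null 6. SLC12A9 (ENSDARG00000060366) stood above every WT library in each null library, at 37.0 and 53.7 CPM, against 15.8, 21.9 and 11.1 CPM in WT.

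The 10 sodium and proton exchangers of slc9, all tested, had 5 positive and 5 negative log2 fold changes, and 1 lay above WT in both null libraries (10%, beside 11.1% of all genes tested) and 2 below (20%, beside 14.8%). slc9a3.1 (ENSDARG00000058498), one of a pair of genes of the NHE3 type that apical membranes carry, had 124 and 11 CPM in the null libraries, against 14.8, 66.1 and 0.378 CPM in WT, and overlapped.

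The slc6 family, which includes amino acid carriers, had the most members, 27. The tested ones divided evenly, with 11 positive and 11 negative log2 fold changes. The 3 IDs of SLC6A19, the neutral amino acid carrier of the brush border, and SLC6A18 were highest in runx1 null 5 and lowest in WT 3. ENSDARG00000056719, the SLC6A19 ID with the most counts, had 146 and 11.3 CPM in runx1 null 5 and 6, against 37.2, 14.0 and 0.151 CPM in WT 1, 2 and 3, and overlapped. SLC6A18 (ENSDARG00000068387) had 29.9 and 2.04 CPM in the null libraries, against 2.64, 1.26 and 0.302 CPM in WT, with runx1 null 6 between WT 1 and WT 2.

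Other slc6 members were lower in both null libraries, 6 of 22 tested in all (27.3%, beside 14.8% of all genes tested). The taurine carrier SLC6A6 (ENSDARG00000098438) had 180 and 25.3 CPM in runx1 null 5 and 6, against 375, 241 and 290 CPM in WT 1, 2 and 3, a log2 fold change of -1.56 ± 0.87 (standard error, adjusted p = 0.612 in edgeR). slc6a22.2 (ENSDARG00000001354) had 45.6 and 27.4 CPM in the null libraries, against 79.0, 155 and 184 CPM in WT. Its log2 fold change of -1.93 ± 0.55 (standard error) had an unadjusted p of 0.0137 and an adjusted p of 0.612 in edgeR. SLC6A9 (ENSDARG00000018534), a glycine carrier, was named after its values were seen, at 34.9 and 5.55 CPM in the null libraries, against 53.4, 37.2 and 74.7 CPM in WT.

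The widely expressed phosphate carriers of slc20 comprised 3 IDs. SLC20A1 (ENSDARG00000020114), PiT1 in mammals, stood at 606 and 40.9 CPM in runx1 null 5 and 6, against 495, 1460 and 2358 CPM in WT 1, 2 and 3. It spanned a wide range in both groups, which overlapped, with a log2 fold change of -2.15 ± 1.27 (standard error, adjusted p = 0.612 in edgeR). The other SLC20A1 ID (ENSDARG00000010641) lay between 105 and 181 CPM in all 5 libraries, at 144 and 181 CPM in the null libraries, against 105, 176 and 147 CPM in WT. SLC20A2 (ENSDARG00000060796) had 25.2 and 40.3 CPM in the null libraries, against 11.8, 27.4 and 11.6 CPM in WT.

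**Figure D4:**
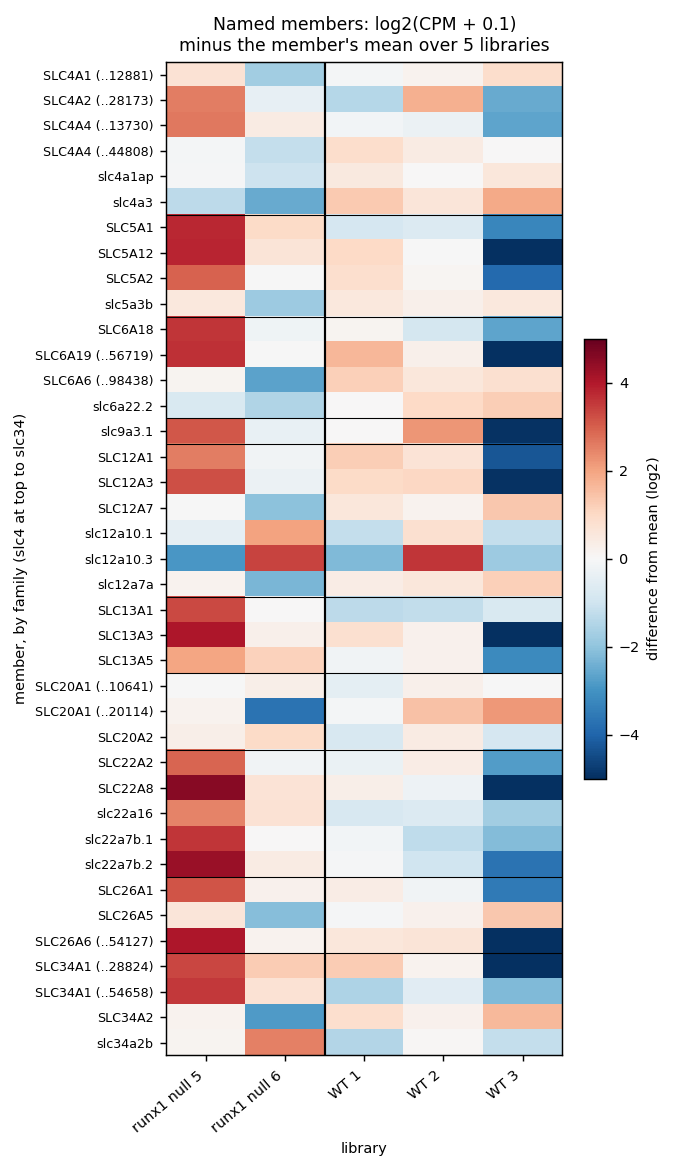
For each of the 39 named members the color gives log2(CPM + 0.1) in a library minus the mean of that member over the 5 libraries, with colors ending at 5 in either direction; the black line parts runx1 null from WT. Tubule carriers such as SLC22A8, SLC13A3 and SLC5A12 are red in runx1 null 5 and blue in WT 3, while SLC12A7, SLC26A5 and SLC20A1 (ENSDARG00000020114) are blue in runx1 null 6 and red in WT 3.

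The duplicated genes of zebrafish gave 14 symbols that were carried by several members, 29 IDs in all, and for 8 of these symbols the IDs were highest in different libraries. The SLC4A4 pair, named for the sodium bicarbonate carrier of the proximal tubule, went opposite ways: ENSDARG00000013730 had 18.1 and 3.85 CPM in runx1 null 5 and 6, against 2.58, 2.34 and 0.378 CPM in WT 1, 2 and 3. ENSDARG00000044808 had 3.70 and 1.69 CPM in the null libraries, against 7.42, 5.41 and 4.003 CPM in WT. Each was separate between the groups, and their log2 fold changes were 2.63 ± 1.07 and -1.06 ± 0.71 (standard errors, adjusted p = 0.612 for both in edgeR).

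For SLC6A6 the second ID (ENSDARG00000012534) was highest in runx1 null 5, with 16.7 and 1.23 CPM in the null libraries, against 4.90, 0.901 and 0.982 CPM in WT, unlike the ID described above, which was highest in WT 1. The SLC4A2 pair was highest in runx1 null 5 for both IDs, but ENSDARG00000028173 varied from 4.95 to 172 CPM over the libraries and ENSDARG00000052330 from 10.23 to 29.8 CPM. The table of names used here does not tell the copies of a pair apart beyond their IDs.

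**Figure D5:**
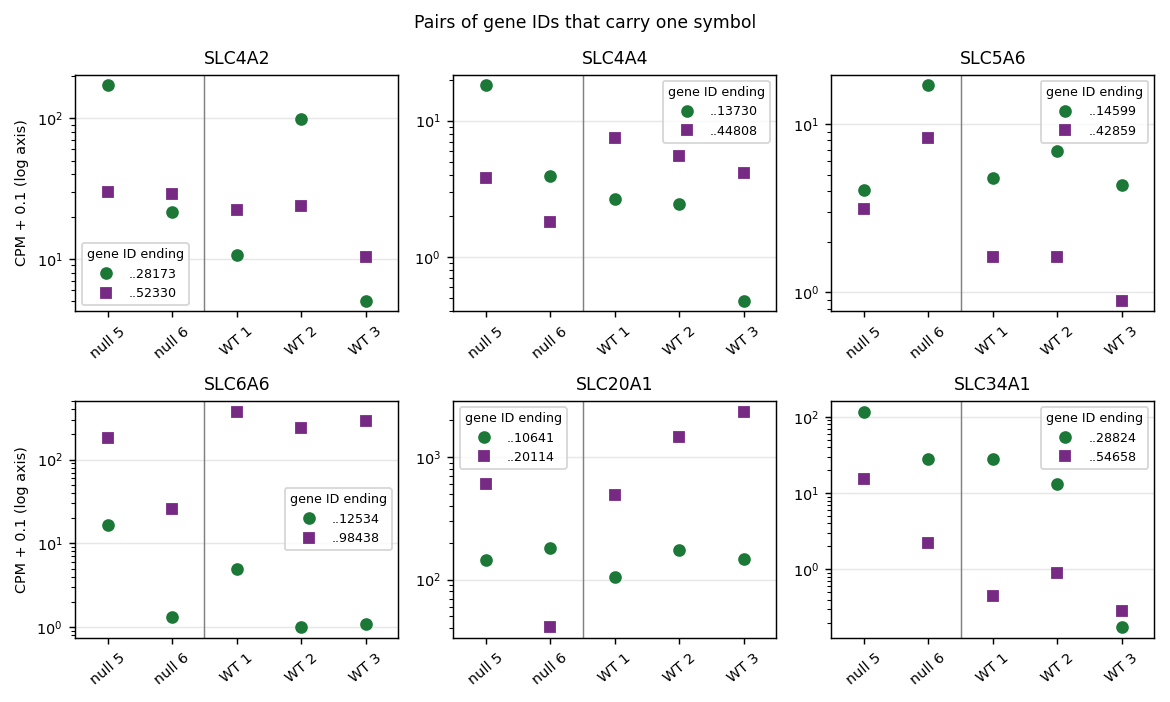
CPM + 0.1 (log axis) of both IDs of 6 shared symbols in each library, runx1 null left of the grey line and WT right of it. The SLC20A1 IDs stand at 147 and 2358 CPM in WT 3 and cross in runx1 null 6, and the SLC4A4 IDs cross between the groups.

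To set the tubule carriers against the amount of tubule in a library, their CPM were divided by those of nephron genes that are not members, a comparison added after the values were seen. Per 100 CPM of CDH17, a cadherin of the zebrafish tubule, SLC22A8 had 32.3 and 18.4 CPM in runx1 null 5 and 6, against 9.53, 4.26 and 7.62 CPM in WT 1, 2 and 3. SLC12A3 had 13.7 and 9.77 CPM per 100 CPM of CDH17 in the null libraries, against 16.2, 11.2 and 10.5 CPM in WT, and SLC12A1 had 8.08 and 10.05 CPM, against 18.5, 8.08 and 17.1 CPM. Of 13 carriers set against CDH17 in this way, SLC22A8 and SLC5A12 were the 2 whose null values lay above all WT values. The other 11 overlapped, and 6 of the 13 were highest in WT 3, which had 105 CDH17 counts. Both null values lay above those of WT 1 and WT 2 for 8 of the 13. SLC22A2 was among those that overlapped, with 36.0 and 35.4 CPM per 100 CPM of CDH17 in the null libraries, against 21.7, 22.6 and 183 CPM in WT, and so was SLC5A1, with 6.24 and 7.29 CPM, against 1.41, 1.01 and 10.5 CPM.

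SLC22A8 is given here because it separated, and its result depended on the gene used as divisor. Per 100 CPM of atp1a1a.4, a sodium pump subunit, it was 34.6 and 20.9 CPM in the null libraries, against 8.51, 5.05 and 5.80 CPM in WT. Per 100 CPM of CUBN, an uptake receptor of the proximal tubule, it was 52.9 and 34.3 CPM, against 19.7, 36.5 and 34.8 CPM, and per 100 CPM of cltrn, a partner of brush-border amino acid carriers, it was 64.6 and 33.7 CPM, against 22.1, 27.5 and 10.96 CPM. The groups were separate for SLC22A8 with 3 of these 4 divisors and overlapped with CUBN, where none of the 13 carriers was higher in both null libraries than in WT and 3 were lower. Both null values lay above those of WT 1 and WT 2 for 9 of the 13 carriers with atp1a1a.4, 5 with cltrn and 4 with CUBN. WT 3 rests on few counts here, 8 for SLC22A8 and 23 for CUBN. For none of the 4 divisors was the share of all genes that separate in this way computed, so these counts of carriers have no background beside them.

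Genes that work with the carriers were read from lists of 83 names, of which 47 gene IDs were found and 40 tested. None reached the adjusted 0.05 threshold with edgeR and 4 had an unadjusted p under 0.05, beside 4.37% of all genes tested. The median log2 fold change was 0.79, with 28 positive and 12 negative values, beside 58.2% positive over all genes tested. Of the 40, 18 were highest in runx1 null 5 and lowest in WT 3, beside 8.61% of all genes tested. Of these 18, 11 came from a single list, partners and other apical carriers, with 12 tested. The sodium pump, acid-base and channel lists gave 2 each, of 5, 7 and 7 tested, and kinases and scaffolds 1 of 9.

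Partners of the brush border moved with the tubule carriers in these libraries. The scaffold gene pdzk1 stood at 158 and 20.9 CPM in the null libraries, against 27.6, 10.9 and 0.529 CPM in WT, and cltrn at 539 and 70.7 CPM, against 81.8, 45.3 and 2.76 CPM. SLC3A1, the heavy chain of the cystine carrier, had 79.7 and 9.19 CPM in the null libraries, against 5.95, 11.1 and 2.34 CPM in WT. Regulators of slc12 carriers did not share the pattern: the kinase gene wnk1a had 184 and 130 CPM in runx1 null 5 and 6, against 193, 151 and 194 CPM in WT 1, 2 and 3, and oxsr1a had 40.5 and 25.7 CPM, against 40.6, 30.7 and 36.9 CPM.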

How the data were processed

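Gene expression in 5 libraries of pooled zebrafish kidneys was analysed from the authors' deposited tables of read counts per Ensembl gene, which are whole numbers and not normalized. The submitters' processing notes name HISAT2 2.2.1.0, HTSeq 0.11.4, DESeq2 and the build GRCz11. The annotation release and strand setting are not given in the sources used here, so antisense and overlapping genes are uncertain. Rows of reads given to no gene were left out; they held between 28.15% and 39.4% of all reads, with non-unique alignments at 8.58% to 10.3%.

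Symbols came from a table that names 29201 of the IDs. Genes were kept by filterByExpr (minimum count 10, total 15), scaled by TMM, and tested with edgeR 4.0.16 (robust quasi-likelihood, two-sided, Benjamini-Hochberg over 20386 genes). Standard errors are the fold change over the root of F. log2 CPM used a prior count of 2. Floors cover counting error only. DESeq2 1.42.0, R 4.3.3, Python 3.11.15 and matplotlib 3.10.9 were used.

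Members and lists were chosen with earlier results of these data known. Named members were SLC22A2, the 3 with the highest mean CPM per family, up to 5 separated members per direction with a mean of at least 50 counts, the 5 smallest p-values, and a list of segment genes, of which 13 of 27 names matched. Others named, such as SLC5A6, SLC6A9 and SLC12A9, were chosen after their values were seen. Some genes that the rule or the lists hold are not reported here. Alternatives covered scaling, filters, DESeq2, left-out libraries and the ovary split.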

Additional observations from a re-analysis of the deposited data

How the results depend on the processing

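No paired analysis was possible because null and WT pools carry different numbers. The counts of genes and of members past the threshold were 0 in edgeR under every scaling, filter and left-out library tried, and 81 and 3 in DESeq2's Wald test. Upper quartile scaling moved the median of all genes tested from 0.24 to 0.07, and the slc20 median to 0.0022, while the medians of slc22, slc34, slc13 and slc5 stayed above 1.8. The slc4 median was 0.27 where each library had to hold at least 10 counts, 0.22 over members averaging at least 50 counts, and -0.24 without the ovary-bearing libraries. Under the same minimum of 10 counts the slc34 median was 0.47, over 2 members, SLC34A2 and slc34a2b. Both SLC34A1 IDs dropped out there, with 2 and 5 counts in WT 3. The slc22 median was 3.675 without the ovary-bearing libraries. Leaving out one library at a time gave medians from -0.42 to 0.92 for slc4, 0.024 to 2.58 for slc5, -0.73 to 1.98 for slc9, 0.48 to 3.00 for slc13, 0.95 to 3.12 for slc22 and 0.24 to 1.503 for all members, with the lowest value of slc22, slc5 and slc13 without runx1 null 5. Among named members it gave log2 fold changes of both signs, from -2.16 to 0.39 for SLC4A1, -0.86 to 3.64 for SLC4A2, -0.0061 to 3.00 for SLC5A2, -2.31 to 0.11 for slc5a3b, -0.62 to 3.54 for SLC6A19, -1.33 to 3.15 for slc9a3.1, -0.63 to 2.16 for SLC12A1, -0.78 to 2.82 for SLC12A3, -6.77 to 1.33 for slc12a10.3 and -2.81 to 0.0053 for SLC26A5. Without runx1 null 6 the log2 fold changes were -0.71 for SLC6A6, -0.76 for SLC12A7, -0.51 for slc12a7a, -0.82 for SLC34A2, 0.90 for slc34a2b and -1.20 for SLC20A1 (ENSDARG00000020114), and without runx1 null 5 they were 1.84 for slc22a16 and 1.09 for SLC4A4 (ENSDARG00000013730). Without the ovary-bearing libraries SLC4A1 was at 0.21, and with the ovary split as a term slc12a10.3 was at -0.88. Apart from the members that a filter removes, the cause was not tested where these values differ from those of the full comparison. Depth limits members under about 0.1 CPM, and the spread between pools limits the test.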

Other observations

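A few members stood out in WT 2 or in the ovary-bearing libraries. They were highest in neither runx1 null 5 nor WT 3, the libraries with the highest nephron and red-cell sums. Lowest in WT 3, as the nephron sum was, were slc9a3.2, SLC12A8 and SLC9A7. slc9a3.2 (ENSDARG00000036722), the gene next to slc9a3.1 in the RefSeq table of the GRCz12tu assembly, stood at 0.257 and 3.85 CPM in runx1 null 5 and 6, against 0.411, 61.7 and 0.0755 CPM in WT 1, 2 and 3. The sodium pump gene atp1a1a.3 was high in the same library, at 2.64 and 9.57 CPM in the null libraries, against 1.67, 171 and 2.34 CPM in WT. slc12a10.3 (ENSDARG00000055253), related to the thiazide-sensitive carrier, had 1 and 353 counts in runx1 null 5 and 6, against 4, 327 and 5 counts in WT 1, 2 and 3. Its neighbor slc12a10.1 reached at most 28 counts, in runx1 null 6. SLC12A8 (ENSDARG00000074384) stood at 6.27 and 35.8 CPM in the null libraries, against 1.12, 10.6 and 0.415 CPM in WT, and the endosomal exchanger SLC9A7 (ENSDARG00000076754) at 17.3 and 69.6 CPM, against 12.3, 25.6 and 6.53 CPM. The part of attached tissue in these levels was not tested. All genes in this paragraph other than the slc12a10 pair were chosen after their values were seen.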
